A study of Homo sapiens with 8 samples.

Results

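Gene expression was compared between TR1, a TRAIL-resistant clone of the human T cell leukaemia line Jurkat, left without drug (2 arrays) and the same clone after 12 h with 0.5 µM SAHA (2 arrays). The comparison covered the 12594 of 22184 array probes that were detected, with a detection p-value below 0.05, on at least 2 of these 4 arrays. TRAIL is a ligand that kills cells through death receptors, and TR1 is a single clone that had been kept under 1000 ng/mL TRAIL for 12 weeks. SAHA, also called suberoylanilide hydroxamic acid or vorinostat, is the drug, and the labels name no vehicle for the untreated cells. The rest of the series, 2 arrays of the TRAIL-sensitive parent line (WT, untreated) and 2 of TR1 with 1 µM SAHA for 12 h, entered the normalization and the estimate of spread and serves as a reference. The 4 TR1 arrays compared thus share the clone and its TRAIL selection, and the labelled difference between them is the drug. The labels call the pairs biological duplicates and do not say how separate the cultures were, so the p-values measure the spread between such duplicates, which may be technical in part.

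SAHA blocks zinc-dependent histone deacetylases, the enzymes that remove acetyl groups from histone tails and from other proteins. Acetylated histones are found at active promoters and enhancers, and inhibitors of this class are known both to raise genes that are silent in a cell and to lower highly active ones, MYC among them in blood cancers. In leukaemia cells they are known to induce CDKN1A (p21, an inhibitor of cyclin-dependent kinases) and to make cells more responsive to TRAIL.

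Each array carries probes for RefSeq transcripts, read as a brightness. Signals are given as normalized log2 values, on which 1 unit is a 2-fold difference, and levels are not compared between probes. The 4 arrays had between 11922 and 12590 detected probes, and untreated array B was the dimmest of the 4 (median probe signal 77.6, against 95.6 to 102). A gene name was available for 11418 of the 12594 probes. Where a gene had several, the probe with the highest mean signal stood for it, which left 10311 genes. The labelled cell type matched its markers, with 10 of 11 T cell markers detected on all 4 arrays. Of 6 B cell, 8 myeloid, 6 NK cell, 8 erythroid and megakaryocyte, 6 epithelial and 6 fibroblast markers on the array, the numbers detected on all 4 were 3, 1, 2, 2, 1 and 0. MS4A1 and PAX5 of B cells, CD14 and LYZ of myeloid cells, HBB of red cells and EPCAM of epithelia were detected on none of the 4. CD79A, CD79B and BLK of B cells and FCGR3A of myeloid cells were detected on all 4. So were NCAM1 and NKG7 of NK cells, HBA1 and ITGA2B of the erythroid and megakaryocyte list and KRT18 of epithelia. CD3D was the T cell marker that was not detected on all 4. With 2 arrays against 2, an exact permutation test of a single gene cannot go below p = 0.333, so the tests are from limma's model over all probes. In such bulk samples, fewer cells of a kind and less RNA per cell cannot be told apart.

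At 0.5 µM, 612 probes were higher and 414 lower than without drug (limma, Benjamini-Hochberg adjusted p below 0.05), which is 4.86% and 3.29% of those tested, or 8.15% together. In genes these were 537 rises (5.21% of genes tested) and 326 falls (3.16%). Most changes were modest: called rises had a median of 1.61-fold and called falls one of 1.49-fold, and the middle of all genes stayed at a log2 change of -0.01. Large fitted changes were mostly rises, with 120 probes up (0.953%) and 20 down (0.159%) by at least 2-fold. By at least 4-fold, 5 were up and 0 down. These counts use the fitted change also for probes undetected in a group, where only a bound holds. PPP2R2B counts at 4-fold, for example, though its bound is 3.84-fold. A call depended on having both duplicates. Each fit without 1 of the 4 arrays called fewer: between 217 and 288 probes, and 163 of the 1026 (126 rises, 1.00% of tested probes, and 37 falls, 0.294%) were called in all 4 such fits. The counts were 288 and 237 without untreated array A or B and 230 and 217 without treated array A or B.

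**Figure D1:**
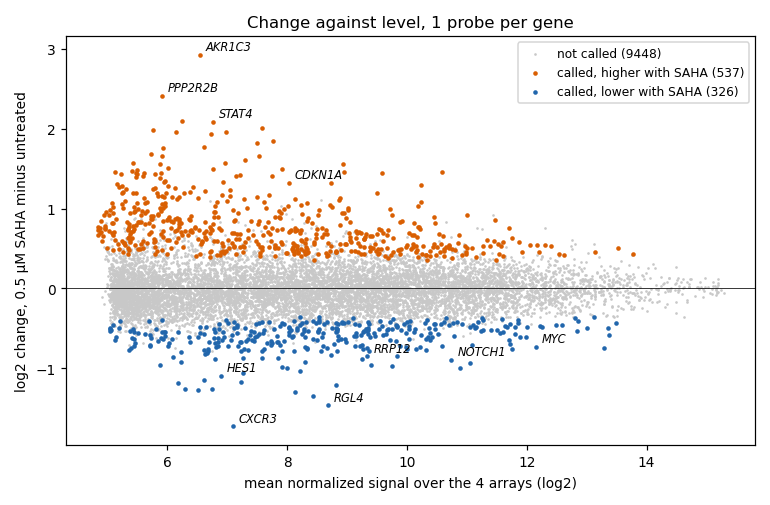
Log2 change at 0.5 µM SAHA (vertical axis) against the mean normalized log2 signal over the 4 arrays (horizontal axis), 1 point for each of 10311 genes, with the 537 called rises and 326 called falls in colour. The largest rises lie among genes with a dim signal, AKR1C3 at the top, while called falls such as MYC and NOTCH1 reach into the bright range.

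The largest fitted rise was that of AKR1C3, an aldo-keto reductase that acts on steroids and prostaglandins. Its signal was 5.22 and 4.93 on the untreated arrays and 8.03 and 7.98 on the treated ones. Neither untreated array detected it, so the rise is given as a lower bound, at least 7.09-fold (limma adjusted p = 0.000295). PPP2R2B, a regulatory subunit of protein phosphatase 2A, was also undetected without drug and stood at 4.69 and 4.72 on the untreated arrays and 7.14 and 7.10 on the treated ones. It was at least 3.84-fold higher (limma adjusted p = 8.51e-05). STAT4, the transcription factor that carries interleukin-12 signals in T cells, was detected on all 4 arrays, with 5.68 and 5.77 on the untreated arrays and 7.76 and 7.86 on the treated ones. It rose 4.24-fold, or by 2.08 ± 0.12 (SE) in log2 (limma adjusted p = 0.000295). These 3 genes were chosen among the largest rises whose pairs do not overlap, so the gap between their pairs is no test. AKR1C3 and PPP2R2B also passed the filter through the treated arrays alone.

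The other 9 of the 12 largest fitted rises were of genes from unrelated families. SEPTIN4, a cytoskeletal GTPase, was 4.02-fold higher, with 6.49 and 6.68 on the untreated arrays and 8.71 and 8.47 on the treated ones. IGF2BP2, an RNA-binding protein, rose 3.88-fold from an untreated signal that 1 of 2 arrays detected. CCNA1, a cyclin mostly known from the male germline, stood at 6.56 and 6.61 on the untreated arrays and 8.40 and 8.43 on the treated ones, a 3.55-fold rise. The endophilin SH3GL3 rose 3.61-fold, the actin-associated RAI14 3.84-fold, the phospholipid flippase ATP8B3 3.4-fold and CCM2L, a relative of a vascular scaffold protein, 3.9-fold. PDGFRL, which resembles a growth factor receptor, was undetected without drug and at least 2.97-fold higher. It passed the filter through the treated arrays alone. TMEM74B, a membrane protein, rose 4.28-fold. For these 9 genes limma's adjusted p lay between 0.000295 and 0.00607. Of the 12 largest rises, 11 stayed called in all 4 fits that left out 1 array, and TMEM74B lost its call without treated array A (limma adjusted p = 0.0513).

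**Figure D2:**
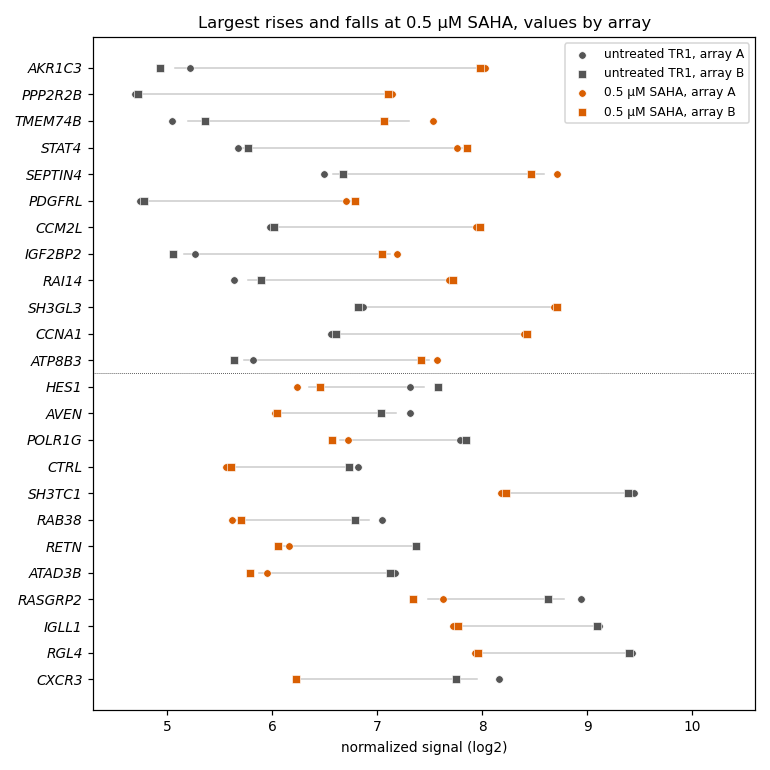
Normalized log2 signal (horizontal axis) of the 12 genes with the largest called rises (above the dotted line) and the 12 with the largest called falls (below it), with untreated TR1 in grey and 0.5 µM SAHA in orange. Circles are array A and squares array B of each group, and the grey line joins the group means. The 24 genes were chosen among called genes whose pairs do not overlap, so their separation follows from the choice.

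Falls were smaller than rises. CXCR3, a chemokine receptor of activated T cells, fell most, with 8.16 and 7.75 on the untreated arrays and 6.23 and 6.23 on the treated ones. It was 3.31-fold lower (limma adjusted p = 0.00142), and the untreated duplicates were wider apart (SD 0.29, n = 2) than the treated ones. RGL4, named for its likeness to an exchange factor of Ral GTPases, had closer duplicates, with 9.43 and 9.40 on the untreated arrays and 7.94 and 7.96 on the treated ones, and was 2.76-fold lower (limma adjusted p = 0.000322). IGLL1, the surrogate light chain known from B cell precursors, was 2.55-fold lower at 9.11 and 9.09 on the untreated arrays and 7.72 and 7.77 on the treated ones, and a second probe for it also fell (log2 change -1.51). RASGRP2, which activates the small GTPase Rap1, fell 2.45-fold. POLR1G, a subunit of RNA polymerase I, was 2.25-fold lower, with 7.79 and 7.85 on the untreated arrays and 6.72 and 6.58 on the treated ones. AVEN, an inhibitor of caspase activation, was 2.21-fold lower, with 7.32 and 7.04 on the untreated arrays and 6.03 and 6.05 on the treated ones. The other genes among the 12 largest falls were the small GTPase RAB38, SH3TC1, the protease CTRL, the mitochondrial ATPase ATAD3B, the hormone RETN and HES1, by between 2.14-fold and 2.42-fold. ATAD3B has close relatives in the genome, and whether its probe tells them apart was not tested. Of the 12, 8 stayed called in all 4 leave-one-out fits. IGLL1 lost its call without treated array A (limma adjusted p = 0.052) and RASGRP2 without treated array B (limma adjusted p = 0.0521). ATAD3B and RETN lost theirs without any 1 of the 4 arrays (limma adjusted p of 0.0575 to 0.0778 and 0.104 to 0.129).

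Rises from below the detection limit outnumbered falls to below it. Of the tested probes, 11305 were detected on all 4 arrays, 251 on both treated arrays and neither untreated one, and 70 on both untreated arrays and neither treated one. Of the 251, 107 were called rises, and of the 70, 20 were called falls. Such probes passed the filter through the group in which they were high, so these counts describe the table and are no test. The 107 had a median treated signal of 5.68, within the dimmest of 5 equal bins of probes (mean signal up to 5.81). In the WT line 28 of them were detected on both arrays, 22 on 1 array and 57 on neither. The treated arrays had 12346 and 12590 detected probes and the untreated ones 11922 and 12370, so the pairs overlap. The part of these array totals in the counts was not tested.

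The clone had been selected with TRAIL, and of 4 tested genes for the ligand and its receptors 1 was called, upward (5.21% of all genes rose). TNFRSF10A (DR4, a death receptor for TRAIL) stood at 4.73 and 4.72 on the untreated arrays and 5.47 and 5.38 on the treated ones. Neither untreated array detected it, so it passed the filter through the treated arrays alone, and it was at least 1.19-fold higher (limma adjusted p = 0.00487). Without treated array A this call was lost (limma adjusted p = 0.0514). TNFRSF10B (DR5, the other death receptor) was bright and did not pass the test, with 9.56 and 9.38 on the untreated arrays and 9.71 and 9.76 on the treated ones (limma adjusted p = 0.212). The ligand's own gene TNFSF10 had a log2 change of 0.31 and the soluble decoy TNFRSF11B one of -0.37 (limma adjusted p = 0.318 and 0.26). The membrane decoys TNFRSF10C and TNFRSF10D did not pass the detection filter.

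Genes of the complex that forms at the receptors gave no call. None of the 6 tested genes of the death-inducing complex passed limma's threshold, and their log2 changes ran from -0.34 to 0.21. The adaptor FADD stood at 10.19 and 10.30 on the untreated arrays and 10.20 and 10.30 on the treated ones, a log2 change of 0.01. The initiator caspases CASP8 and CASP10 had changes of -0.07 and -0.15, and CFLAR, which encodes the inhibitor FLIP, one of -0.34 (limma adjusted p = 0.271). TRADD and CYLD had -0.09 and 0.21. Of 5 tested caspase and apoptosome genes, 5 survival members of the BCL2 family and 6 inhibitors of apoptosis and their antagonists, 0 were called in either direction. Unadjusted p-values below 0.05 were found for 3211 of the 12594 probes in this fit.

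Among the pro-death members of the BCL2 family, 1 of 10 tested genes rose and 2 fell (5.21% and 3.16% of all genes). HRK, a BH3-only protein, stood at 5.49 and 5.77 on the untreated arrays and 6.83 and 6.72 on the treated ones, a 2.2-fold rise (limma adjusted p = 0.00433) that stayed called when any 1 array was left out. BID, which links death receptors to mitochondria, was 1.43-fold lower (limma adjusted p = 0.0265) and BIK, another BH3-only protein, 1.35-fold lower (limma adjusted p = 0.0428). Both falls lost their calls without any 1 of the 4 arrays (limma adjusted p of 0.128 to 0.139 and 0.106 to 0.242), and the second BID probe had a log2 change of -0.14. Among 4 tested members of the other death receptor and ligand families, LTB (lymphotoxin beta) was 1.64-fold lower (limma adjusted p = 0.00611), with 0.0554 and 0.06 without untreated or treated array B.

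Transcripts of the drug's target enzymes gave no call. Of 13 tested histone deacetylase and sirtuin genes 0 were called, with a median log2 change of 0.05. HDAC1 stood at 14.23 and 14.22 on the untreated arrays and 14.25 and 14.25 on the treated ones. HDAC2 and HDAC3 had log2 changes of 0.05 and 0.23, HDAC6 and HDAC8 0.26 and 0.28, HDAC11 0.16, and HDAC4 and HDAC5 -0.48 and -0.06. HDAC9 came nearest to a call, with 4.74 and 5.29 on the untreated arrays and 5.72 and 6.05 on the treated ones (log2 change 0.87, limma adjusted p = 0.0514). Among the NAD-dependent sirtuins, which SAHA does not target, SIRT7 had -0.44 (limma adjusted p = 0.0723), SIRT1 -0.23, SIRT2 -0.09 and SIRT5 0.20. HDAC7, SIRT3 and SIRT6 did not pass the detection filter.

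Other chromatin genes changed 1 at a time, where 5.21% of all genes rose and 3.16% fell. The acetyltransferase KAT2B (PCAF) stood at 8.92 and 8.77 on the untreated arrays and 9.54 and 9.58 on the treated ones, a 1.64-fold rise (limma adjusted p = 0.00512), and was the 1 gene called among 11 acetyltransferases and acetyl-lysine readers. The linker histone variant H1-10 rose 1.86-fold, with 9.89 and 10.11 on the untreated arrays and 10.91 and 10.89 on the treated ones (limma adjusted p = 0.00851), the 1 call among 7 replacement histones. Among 8 tested genes of the histone clusters H2BC5 rose, by 1.47-fold at the brighter of its probes and by a log2 change of 1.12 at the other. GPS2, a subunit of the NCOR corepressor, rose 1.34-fold (1 of 13 corepressor genes), and the Polycomb gene CBX7 1.37-fold (1 of 12). Leaving out 1 array ended the calls of H2BC5, GPS2 and CBX7 in all 4 cases (limma adjusted p of 0.0631 to 0.104, 0.123 to 0.192 and 0.0823 to 0.222). It ended that of H1-10 in 3 of 4 (up to 0.0651) and that of KAT2B without untreated array B (0.0506) or treated array B (0.0521).

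Inhibitors of cyclin-dependent kinases were among the called rises. CDKN1A stood at 7.33 and 7.40 on the untreated arrays and 8.71 and 8.68 on the treated ones, 2.51-fold higher, or 1.33 ± 0.17 (SE) in log2 (limma adjusted p = 0.00431). CDKN1B (p27) was 1.47-fold higher (limma adjusted p = 0.039), and 2 of 5 tested genes of this group were called, both upward (5.21% of all genes rose). The D-type cyclins CCND1 and CCND2, which drive entry into the cell cycle, were undetected without drug. CCND1 stood at 4.40 and 4.40 on the untreated arrays and 5.84 and 5.87 on the treated ones, and CCND2 at 4.52 and 4.52 on the untreated arrays and 6.02 and 5.88 on the treated ones. The rises were at least 1.6-fold and 1.7-fold (limma adjusted p = 0.00117 and 0.00162). Both passed the filter through the treated arrays alone. Of the 16 tested genes of the G1 and S machinery these were the 2 called, and 0 were called among those detected on all 4 arrays. The calls of CDKN1A, CCND1 and CCND2 remained without any 1 of the 4 arrays, while that of CDKN1B was lost each time (limma adjusted p of 0.101 to 0.204).

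The promoter of CDKN1A is shown because its proximal GC-rich stretch is the textbook target of deacetylase inhibitors. It is given 5′ to 3′ from RefSeq (GRCh38.p14), 300 bases around the annotated start of the gene, with matches to the GC box (GGGCGG, either strand) in capitals.
CDKN1A promoter, chr6:36678464-36678763, plus strand: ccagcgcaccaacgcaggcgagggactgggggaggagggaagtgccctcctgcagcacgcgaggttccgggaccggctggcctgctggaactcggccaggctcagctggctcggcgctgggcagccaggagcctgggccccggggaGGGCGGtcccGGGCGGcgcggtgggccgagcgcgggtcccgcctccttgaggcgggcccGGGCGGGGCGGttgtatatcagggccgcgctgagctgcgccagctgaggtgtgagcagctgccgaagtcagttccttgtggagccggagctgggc
The stretch holds 4 matches, of which the third and the fourth overlap, and 29 CpG dinucleotides. The GC box was found in 70.3% of 437 called rises with a promoter in the table, in 70.3% of 266 called falls and in 68.7% of all 8553 tested genes that had one.

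Other genes of the dividing cell gave few calls. Of 27 tested genes of the replication fork and its licensing 0 were called (median log2 change -0.06), and of 10 genes of homologous recombination and repair 0. Among 29 mitotic genes the median log2 change was 0.19 and both treated arrays lay above both untreated ones in 19, a pattern that 28.7% of all genes showed. HMMR, a spindle-associated protein, was called higher (1.5-fold, limma adjusted p = 0.0146) and UBE2C, a ubiquitin-conjugating enzyme of mitotic exit, lower (1.45-fold, limma adjusted p = 0.038). Neither call survived the loss of 1 array (limma adjusted p of 0.0645 to 0.112 and 0.0683 to 0.216), and between 0 and 8 mitotic genes were called upward under other settings. Of 11 tested p53 target genes 3 rose (5.21% of all genes did): TP53INP1 by 1.67-fold, GADD45A by 1.55-fold and SESN1 by 1.5-fold (limma adjusted p = 0.00527, 0.0171 and 0.0204). TP53INP1 lost its call without treated array B (limma adjusted p = 0.0536), and GADD45A and SESN1 lost theirs without any 1 array (0.0637 to 0.123 and 0.0868 to 0.129).

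MYC and genes of ribosome production were lower with the drug. Of 17 tested genes in this list 7 were called falls and 0 rises (3.16% of all genes fell), the median log2 change was -0.47, and in 15 of the 17 both treated arrays lay below both untreated ones (30.7% of all genes). MYC, the transcription factor that drives ribosome production, stood at 12.44 and 12.60 on the untreated arrays and 11.77 and 11.81 on the treated ones, a fall of 1.66-fold (limma adjusted p = 0.00506). RRP12, a factor in the export of ribosomal subunits, was 1.8-fold lower, with 9.78 and 9.75 on the untreated arrays and 8.91 and 8.93 on the treated ones (limma adjusted p = 0.00349). NOP16 and RRP9, both nucleolar proteins, were 1.51-fold and 1.43-fold lower (limma adjusted p = 0.0228 and 0.0299). Under quantile normalization the ribosomal protein genes did not share the shift. Of 17 tested genes 0 were called, with log2 changes from -0.05 to 0.14. Changes of bright probes depended on the normalization, as described below. The RRP12 call remained without any 1 array. MYC had an adjusted p of 0.0501 without untreated array B or treated array A, and NOP16 and RRP9 lost theirs each time (limma adjusted p of 0.0786 to 0.148 and 0.102 to 0.181). In these fits 1 or 2 of the 7 were called, and under the other settings between 3 and 10 members were.

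**Figure D3:**
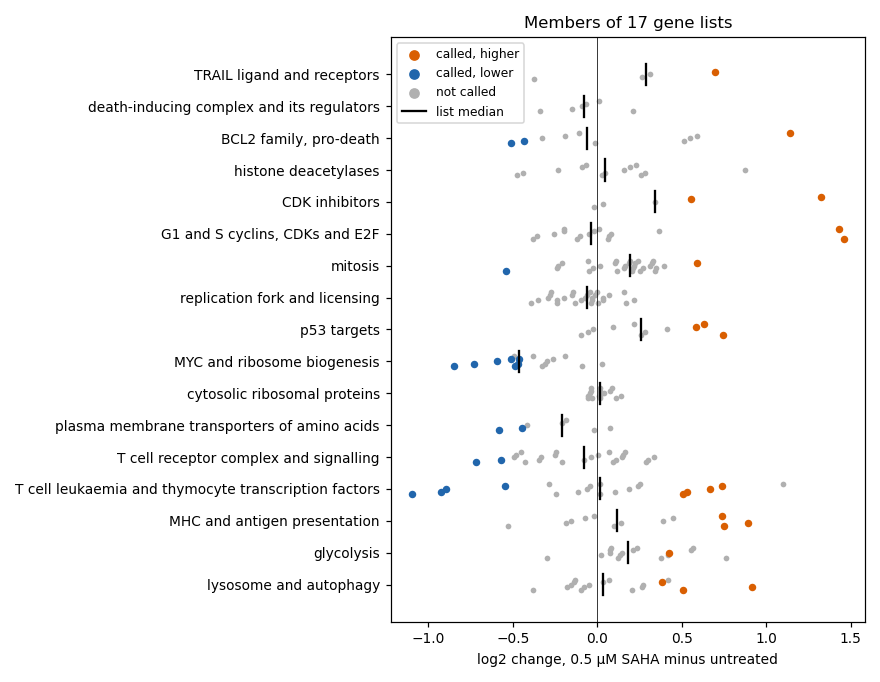
Log2 change at 0.5 µM SAHA (horizontal axis) of each tested member of 17 gene lists (rows). Orange and blue points are called rises and falls, grey points were not called, and the black bar is the list's median. The MYC and ribosome biogenesis list lies almost wholly below 0, with a median of -0.47, while the ribosomal protein genes lie close to 0.

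Single genes of nutrient uptake and protein folding also fell. Of 7 tested amino acid transporters of the plasma membrane 2 were called, both downward (3.16% of all genes fell), SLC7A5 and its partner SLC3A2, which together form the large neutral amino acid carrier. SLC7A5 was very bright, with 13.67 and 13.64 on the untreated arrays and 13.12 and 13.03 on the treated ones, and fell 1.49-fold (limma adjusted p = 0.00897). SLC3A2 fell 1.36-fold (limma adjusted p = 0.0242), and its second probe had a log2 change of -0.66 (limma adjusted p = 0.0975). CTPS1, an enzyme of pyrimidine synthesis, was 1.34-fold lower, the 1 call among 14 genes of nucleotide synthesis. HSPA5, the chaperone of the endoplasmic reticulum, was 1.51-fold lower with 9.43 and 9.39 on the untreated arrays and 8.82 and 8.81 on the treated ones, the 1 call among 12 genes of the unfolded protein and integrated stress response. All 4 calls were lost without any 1 array, at limma adjusted p-values between 0.0561 (SLC7A5) and 0.179 (CTPS1).

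The E-box CACGTG is the textbook binding sequence of MYC. POLR1G and SLC7A5, described above, and RRP9 hold it in the 300 bases around their annotated start, and these 3 called falls were chosen for display after the match was known. Their promoters are given 5′ to 3′ from RefSeq (GRCh38.p14), with the match in capitals.
POLR1G promoter, chr19:45406394-45406693, plus strand: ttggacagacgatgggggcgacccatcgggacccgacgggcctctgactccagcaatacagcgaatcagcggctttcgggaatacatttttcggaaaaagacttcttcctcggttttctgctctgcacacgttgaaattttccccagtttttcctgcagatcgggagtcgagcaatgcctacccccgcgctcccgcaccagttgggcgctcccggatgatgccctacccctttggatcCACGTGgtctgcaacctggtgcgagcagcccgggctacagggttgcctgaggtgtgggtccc
RRP9 promoter, chr3:51941855-51942154, minus strand: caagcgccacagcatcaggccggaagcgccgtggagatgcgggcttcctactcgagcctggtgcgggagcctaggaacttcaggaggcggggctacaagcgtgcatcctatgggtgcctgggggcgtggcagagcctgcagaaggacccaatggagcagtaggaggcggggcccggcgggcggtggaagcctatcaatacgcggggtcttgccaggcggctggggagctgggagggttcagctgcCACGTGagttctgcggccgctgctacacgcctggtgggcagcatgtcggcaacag
SLC7A5 promoter, chr16:87869458-87869757, minus strand: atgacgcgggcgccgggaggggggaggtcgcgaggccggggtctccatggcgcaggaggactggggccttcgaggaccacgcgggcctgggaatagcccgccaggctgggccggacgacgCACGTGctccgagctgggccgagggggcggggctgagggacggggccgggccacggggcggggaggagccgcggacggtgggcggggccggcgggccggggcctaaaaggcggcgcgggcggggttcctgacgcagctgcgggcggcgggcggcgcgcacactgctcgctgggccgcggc
CACGTG was found in 21.1% of the promoters of called falls (56 of 266), in 7.55% of those of called rises (33 of 437) and in 10.3% of all tested genes (879 of 8553). In the MYC and ribosome list 4 of 11 promoters held it, and 1 of the 3 promoters of its called falls did. The ETS-type sequence CCGGAAG was in 8.24% of rises, 15.8% of falls and 19.3% of all genes, so both called groups lay below the share of all genes. For the other sequences searched the shares lay closer together. CCAAT was in 37.1% of rises, 33.5% of falls and 37.2% of all genes, TATAAA in 7.09%, 4.89% and 5.74%, TGACGTCA in 2.97%, 2.63% and 3.25%, and TGACTCA in 2.52%, 3.38% and 2.88%. These are counts of letters on either strand, with no test.

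NOTCH1, the receptor that drives many T cell leukaemias, and HES1 and DTX1, known targets of it, were among the called falls. NOTCH1 stood at 11.14 and 11.24 on the untreated arrays and 10.25 and 10.34 on the treated ones, 1.86-fold lower (limma adjusted p = 0.00493). HES1, a transcriptional repressor, was 2.14-fold lower with 7.31 and 7.58 on the untreated arrays and 6.24 and 6.46 on the treated ones (limma adjusted p = 0.00296). DTX1, a ubiquitin ligase of the pathway, stood at 8.69 and 8.83 on the untreated arrays and 7.84 and 7.83 on the treated ones, 1.9-fold lower (limma adjusted p = 0.00471). All 3 calls remained when any 1 array was left out. In the same list of 20 tested T cell leukaemia and thymocyte transcription factors 4 genes fell and 4 rose (3.16% and 5.21% of all genes), with a median log2 change of 0.02. With 1 array left out, 3 or 4 members were called lower and 0 or 1 higher. RUNX3, a factor of T cell maturation, was 1.67-fold higher with 9.86 and 9.85 on the untreated arrays and 10.64 and 10.55 on the treated ones (limma adjusted p = 0.00744). Its call was lost without untreated array A or B or treated array A (limma adjusted p of 0.0529, 0.0564 and 0.0672), and its second probe had a log2 change of 0.32 (limma adjusted p = 0.0966).

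The HES1 promoter is shown for the core sequence bound by RBPJ, the DNA-binding partner of Notch (GTGGGAA, either strand, in capitals), 5′ to 3′ from RefSeq (GRCh38.p14).
HES1 promoter, chr3:194135898-194136197, plus strand: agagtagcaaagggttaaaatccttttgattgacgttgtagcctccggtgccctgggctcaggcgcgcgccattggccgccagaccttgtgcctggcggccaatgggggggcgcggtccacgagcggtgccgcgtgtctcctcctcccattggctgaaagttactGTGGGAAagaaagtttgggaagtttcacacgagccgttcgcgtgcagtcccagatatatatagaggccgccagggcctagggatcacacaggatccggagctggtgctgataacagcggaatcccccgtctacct
It holds 1 match, and 59% of its bases are G or C. The same letters were found in 7.89% of called falls, 4.35% of called rises and 5.68% of all tested genes with a promoter.

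Few T cell receptor genes were called. Of 23 tested genes of the T cell receptor complex and its signalling 2 fell (3.16% of all genes did) and 0 rose, with a median log2 change of -0.08. The surface receptors CD7 and CD6 were 1.64-fold and 1.48-fold lower, with 10.20 and 10.27 on the untreated arrays and 9.48 and 9.56 on the treated ones for CD7 (limma adjusted p = 0.0267 and 0.0332), and both calls were lost without any 1 array (limma adjusted p of 0.106 to 0.142 and 0.117 to 0.169). Of 10 activation genes, the phosphatase DUSP2 was called, 1.6-fold lower (limma adjusted p = 0.0385, 0.0779 to 0.21 with 1 array left out). Genes known from other cell types changed singly. NCAM1, an adhesion molecule of NK cells and neurons, stood at 5.92 and 5.65 on the untreated arrays and 7.08 and 7.04 on the treated ones, 2.42-fold higher (limma adjusted p = 0.00172), although its second probe had a log2 change of 0.27. NKG7, a granule protein of cytotoxic cells, was 1.72-fold lower with 7.92 and 8.01 on the untreated arrays and 7.20 and 7.17 on the treated ones (limma adjusted p = 0.00334). The other tested NK cell marker was not called, and KLRD1, KLRF1 and GNLY were detected on none of the 4 arrays. COL1A1, a fibroblast collagen, was undetected without drug and at least 1.25-fold higher (limma adjusted p = 0.00433). It was the 1 tested marker of 6 and passed the filter through the treated arrays alone, while COL1A2, COL3A1, LUM and PDGFRB were detected on none of the 4 arrays. The mean deposited signal of the 6 fibroblast marker genes was 72.5 and 57.2 without drug and 75.2 and 79.8 with it. For the 6 NK cell marker genes it was 100.2 and 80.7, and 102 and 102. Of the B cell, myeloid, erythroid and epithelial markers 0 were called, among 4, 2, 2 and 1 tested. These deposited signals are not normalized, and the part of other cell types in the results was not tested.

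Immune response genes moved in both directions. Of 12 tested genes of antigen presentation 3 rose (5.21% of all genes did): HLA-B by 1.86-fold, HLA-F by 1.68-fold and HLA-DMA by 1.67-fold (limma adjusted p = 0.018, 0.00934 and 0.00771). HLA-DMA stood at 7.53 and 7.41 on the untreated arrays and 8.19 and 8.23 on the treated ones. Classical HLA genes are alike in sequence and differ between people, so what each HLA probe reads is uncertain. Of 13 interferon response genes 2 rose and 2 fell (5.21% and 3.16% of all genes). IFIT2 was 1.93-fold and IFI6 1.5-fold higher, while IFI35 was 1.72-fold and the transcription factor IRF1 1.41-fold lower (limma adjusted p of 0.0113 for IFI35 to 0.0475 for IRF1). TNFAIP3, a feedback inhibitor of NF-kB, was 1.48-fold higher, the 1 call among 7 NF-kB targets. HLA-B, IFIT2, IFI6, IRF1 and TNFAIP3 lost their calls without any 1 of the 4 arrays (limma adjusted p from 0.0656 for HLA-B to 0.252 for IRF1). IFI35 stayed called without untreated array A alone (0.0704 to 0.0809 otherwise), HLA-DMA likewise (0.0575 to 0.0649), and HLA-F without untreated array B alone (0.0637 to 0.0726).

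Single members rose in several other groups, where 5.21% of all genes rose and 3.16% fell. MT3, a metallothionein, stood at 5.05 and 5.30 on the untreated arrays and 6.57 and 6.68 on the treated ones, 2.72-fold higher (limma adjusted p = 0.00739, 0.0557 without untreated array A and 0.0588 without treated array B), the 1 call among 4 tested metallothioneins. Among 17 genes of lysosome and autophagy 3 rose (5.21% of all genes did). GABARAPL1, which takes part in autophagosome formation, stood at 9.38 and 9.20 on the untreated arrays and 10.20 and 10.21 on the treated ones, 1.89-fold higher (limma adjusted p = 0.00508), and it stayed called when any 1 array was left out. WIPI1 and LAMP2 rose 1.42-fold and 1.3-fold (limma adjusted p = 0.0314 and 0.0411, and from 0.101 to 0.198 with 1 array left out), and 2 other LAMP2 probes were not called. Of 31 neuronal genes on the array that the repressor REST is known to silence, 12 were tested. Of these, 2 were called upward and 1 downward (5.21% and 3.16% of all genes). DPYSL3 and CHGB were undetected without drug, passed the filter through the treated arrays alone, and were at least 1.13-fold and 1.47-fold higher, and VGF was 1.73-fold lower (limma adjusted p = 0.00302, 0.00995 and 0.00829). The DPYSL3 call remained in all leave-one-out fits, while CHGB lost its call without any 1 array (limma adjusted p of 0.0685 to 0.0756) and VGF without untreated array A or B or treated array A (0.0592, 0.0568 and 0.0715). TUBB2A rose 1.61-fold among 10 tubulin and microtubule genes (limma adjusted p = 0.0103, 0.0506 to 0.0852 with 1 array left out). In glycolysis TPI1 was called, 1.34-fold higher, and in 12 of 16 genes both treated arrays lay above both untreated ones (28.7% of all genes), with a median log2 change of 0.18. GPX1, which detoxifies peroxides, was the 1 call among 13 genes of oxidative stress, 1.32-fold lower. TPI1 and GPX1 lost their calls without any 1 array (limma adjusted p of 0.125 to 0.187 and 0.13 to 0.22). Among 12 cytosolic chaperones, 15 genes of cholesterol synthesis and 4 germline genes 0 were called. The lists were chosen with earlier results of these data known, so their total share of calls is no test. Over all 45 lists 469 genes were tested and 62 called (13.2%, against 8.37% of all genes), and 13 of the 62 remained in all 4 leave-one-out fits.

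The balance of rises and falls changed with the level of the signal. Tested probes were split by mean signal into 5 equal bins. In the dimmest bin 145 rose and 47 fell (75.5% up). In the brightest bin 62 rose and 73 fell (45.9% up). The spread between duplicates narrowed over the same range, from an SD of 0.29 to 0.11 for the untreated pair and from 0.27 to 0.11 for the treated pair. The bright range also answered to the normalization. Under median scaling over the tested probes in place of quantile normalization, 24 of the brightest bin rose and 204 fell (10.5% up), and the overall split was 519 up and 576 down (47.4% up, against 59.6%). Median scaling over all probes of the array left the overall split at 497 up and 341 down (59.3% up), with 15 up and 86 down in the brightest bin (14.9% up). The median log2 change of the brightest bin was -0.09 with that scaling and -0.11 with scaling over the tested probes. Under quantile normalization it was 0.002, so levels are relative to the normalization chosen.

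**Figure D4:**
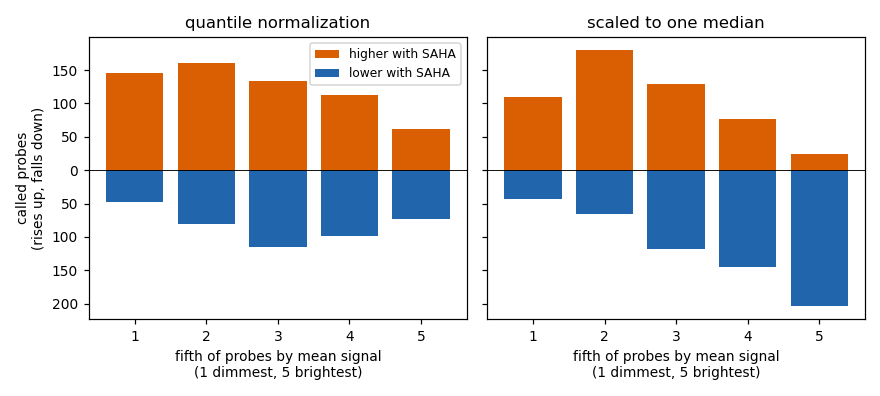
Number of called probes (vertical axis, rises above the line and falls below it) in 5 equal bins of probes by mean normalized signal (horizontal axis, 1 the dimmest). On the left arrays were quantile-normalized, on the right they were scaled to the same median over the tested probes. Rises outnumber falls in the dim bins on both sides, while in the brightest bin 62 rose and 73 fell on the left and 24 rose and 204 fell on the right.

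The other groups give the scale of these changes. With 1 µM SAHA the same untreated arrays serve as control, so the 2 comparisons are not independent and only their own values are set side by side. AKR1C3 had a mean of 8.004 at 0.5 µM and 8.73 at 1 µM, against 5.84 in WT. CDKN1A had a log2 change of 1.33 at 0.5 µM and 2.25 at 1 µM, CXCR3 -1.73 and -2.33, and MYC -0.73 and -1.08. RAI14 had 1.94 and 1.96, RAB38 -1.26 and -1.22, and AVEN -1.14 and -1.19. The direct test between the doses called 36 of 12594 probes (0.286%), among them 7 of the 78 named genes with a call at 0.5 µM. These were PPP2R2B, STAT4, TNFRSF10A, H2BC5, TUBB2A and DPYSL3, higher at 1 µM, and RGL4, lower (limma adjusted p of 0.00922 for DPYSL3 to 0.0385 for TNFRSF10A). For AKR1C3, CDKN1A and MYC the test between doses did not pass (limma adjusted p = 0.128, 0.0703 and 0.151).

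Some, but not all, of the 12 largest rises were of genes whose signal in WT was near the treated level. STAT4 had a mean of 7.87 in WT, 5.73 in untreated TR1 and 7.81 with 0.5 µM SAHA. PPP2R2B had 6.83, 4.71 and 7.12, RAI14 7.79, 5.77 and 7.71, and IGF2BP2 7.42, 5.16 and 7.12. In SH3GL3 and ATP8B3 the WT mean lay between those of untreated and treated TR1. The rest of the 12 had a WT mean nearer to untreated than to treated TR1: AKR1C3, TMEM74B, SEPTIN4, PDGFRL, CCM2L and CCNA1. SEPTIN4, for example, had 6.85 in WT, 6.58 in untreated TR1 and 8.59 with the drug, and PDGFRL had 4.96, 4.77 and 6.75. Some called rises outside the 12 also had little difference between the lines. CDKN1A was at 7.19 in WT and 7.37 in untreated TR1, and CCND1 at 4.43 and 4.40, where neither line detected it. HES1 was higher in the clone, with 6.41 in WT, 7.45 in untreated TR1 and 6.35 with the drug. The lines and the drug effect share the untreated TR1 arrays, so no relation between them is drawn.

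**Figure D5:**
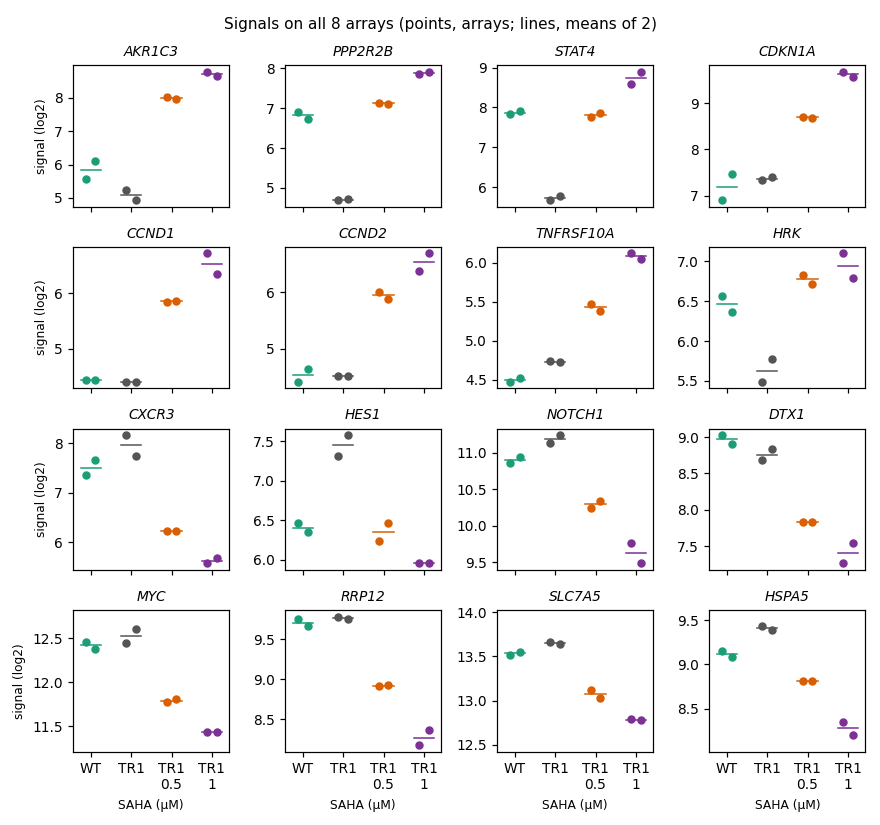
Normalized log2 signal (vertical axis, its own range for each gene) of 16 genes on all 8 arrays in the 4 groups (horizontal axis: WT, TR1 without SAHA, TR1 with 0.5 and with 1 µM SAHA), with points for arrays and lines for means of 2. All 16 genes were called at 0.5 µM, and in every called probe the 0.5 µM pair is separate from the untreated TR1 pair. PPP2R2B and STAT4 are low in untreated TR1 alone, while CCND1 and CCND2 are low in both untreated groups.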

How the data were processed

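The 8 samples, 2 in each of 4 groups, were hybridised to Illumina HumanRef-8 BeadChips. The authors deposited linear probe intensities that were not normalized and were all above 0, so no background had visibly been subtracted. Detection p-values follow the signals array by array, per the file headers. Of the tools used upstream, the submitters' processing notes list limma. Its settings and the program that extracted the signals are not stated in the labels. A second deposited table of the authors holds quantile-normalized intensities (within 0.989% of the quantile-normalized signals) and served as an alternative. The A and B of the signal columns match no replicate number in the labels, and each column was tied to its group alone. No column belonged to another series (0).

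Signals were processed with limma 3.58.1 in R 4.3.3: neqc on all 8 arrays (background fitted from the detection p-values, offset 16, quantile normalization, log2), then 1 linear model with a mean per group (lmFit and eBayes, 4 residual and 4.1 prior degrees of freedom), two-sided contrasts and Benjamini-Hochberg adjustment over the 12594 probes tested. Log2 changes had a standard error of 0.12 at the median. A probe was called at an adjusted p below 0.05. A probe undetected on both arrays of a group has only a bound there, and its fold, written "at least", is taken against whichever is larger, its own signal or the faintest detected one. The steps were tested on simulated arrays. There 0 of 50 tested probes with a true log2 change of 0.5 were called, 18 of 42 at 1 and 29 of 56 at 2. Of the 52 calls, 5 were of unchanged probes. A gene without a call may therefore have changed. The simulation held fewer changed probes than were called here. It also gave each probe a spread drawn without regard to its signal, and 14839 simulated probes passed the filter, against 12594 here. Its shares therefore need not hold for these data.

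Genes were taken from GEO's platform annotation, which names 19715 probes with 1 gene each and leaves 2469 unnamed here. Symbols came from RefSeq by gene ID (19695), by accession (7) or from the annotation (13). Named genes are the 12 largest rises and falls among called genes whose groups do not overlap, every tested member of the TRAIL receptor, death-inducing complex and histone deacetylase lists, and up to 4 called members of each other of 45 lists. The comparison and the lists were chosen with earlier results of these data known. Alternatives changed the background correction, scaling, filter, arrays fitted, variance model and replicate block. Of 10311 genes tested 8553 had a promoter in the RefSeq table.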

Additional observations from a re-analysis of the deposited data

How the results depend on the processing

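Counts depended on the array number and on the processing. None of the 100 named genes turned its sign with a call (0 reversed values). Of these, 78 were called in the main fit and most were named for it, so this is no test of direction. Signs did turn among named genes without a call: FADD and HDAC2 kept theirs in 18 of 22 settings. Falls numbered 641 without background correction, 670 with a variance trend and robust variances and 644 on the authors' normalized values. Rises were 56.0%, 56.4% and 55.9% of the calls there, 56.5% with an offset of 50, 54.6% for probes detected on all 4 arrays and 47.4% with median scaling over the tested probes, a setting chosen after seeing the data. List members called were 98 with the variance trend. Letters A and B were treated as names: deviations of the same letter in the 2 groups correlated (r = 0.295), with only 2 pairs. With the letter as a replicate block 1293 probes were called (748 up, 545 down), and on the authors' values with the replicate block 2061 (1104 up, 957 down, 53.6% up, 119 list members). Leaving out 1 array of the 8 gave 217 to 1271 calls, 163 to 768 rises, 54 to 503 falls, 60.4% to 76.4% up and 17 to 82 list members, and of 78 named calls 36 to 41 stood when a compared array was left out. Rises were 85.6% of calls in the dimmest of 5 bins without background correction, and 14.9% and 10.5% in the brightest bin with median scaling over all and over tested probes. At a detection p below 0.01, 65 probes were detected on both treated arrays alone and 2 on both untreated arrays alone. The cause of these shifts was not tested. The small number of arrays and dim signals near background limit the precision.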
